A study of Mus musculus with 27 samples.

Results

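Arntl, Clock, Npas2, Cry1, Cry2 and Nfil3 are 6 genes of the circadian clock, grouped under the label of the phase opposite to that of Dbp, a clock output gene. They were chosen by symbol and are 6 of the 52636 gene identifiers counted. RNA was sequenced from the frontal cortex and striatum of adult mice on the 129S1 background, about 2.5 months old and kept under 12 h of light, with lights on at 7 h and off at 19 h. The Igf2enh-/- mice are homozygous for a 4.9 kb deletion between H19 and Igf2 that removes an enhancer and leaves a loxP site, and the wild-type mice carry neither. Frontal cortex came from 6 wild-type and 6 Igf2enh-/- mice, with 3 females and 3 males of each genotype. Striatum came from 7 wild-type mice, 3 of them female, and from 8 Igf2enh-/- mice, 4 of them female. The selection cassette used to make the deletion had been removed by a cross to Hprt-CRE mice. The labels give the light cycle but no hour of tissue collection for a library, and they do not say which cortical and striatal libraries came from the same mouse. In GRCm38.p6 the members lie at chr7:113178471-113314126 (Arntl, plus strand), chr5:76209868-76305603 (Clock, minus strand), chr1:39193702-39363240 (Npas2, plus strand), chr10:85131700-85185054 (Cry1, minus strand), chr2:92403646-92434085 (Cry2, minus strand) and chr13:52967209-52982878 (Nfil3, minus strand). Libraries are named by the number that opens their label, and totals ran from 23686945 to 33926904 counts.

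The mammalian clock is a feedback loop of transcription. The protein of Arntl (BMAL1) pairs with CLOCK or with its relative NPAS2, and the pair binds E-box sequences to switch on the Per and Cry genes, Nr1d1, Nr1d2, Ciart and Dbp. The CRY proteins, made from Cry1 and Cry2, then hold back the same pair. The nuclear receptors NR1D1 and NR1D2 (REV-ERBs) repress, and the ROR receptors activate, genes with ROR elements, among them Arntl. Nfil3 makes a repressor of D-box sequences, where DBP, TEF and HLF activate. In most tissues Arntl RNA is high when Dbp RNA is low. In the forebrain NPAS2 can stand in for CLOCK.

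The promoter windows of RefSeq in GRCm38.p6, from 250 bases before to 50 bases after each annotated start, show where the letters of these elements lie in the members. There were 9 windows for the 6 members. The core of the ROR element (TAGGTCA or TGGGTCA, both strands) was in 2 of the 9 windows, at Arntl and Nfil3, and in 6.45% of all 32851 windows. The E-box CACGTG was in 1 of the 9, at Cry1, and in 7.15% of all. The D-box (TTATGTAA or TTACGTAA, both strands) was in 0 of the 9 and 1.06% of all, and the cyclic AMP response element TGACGTCA in 0 of the 9 and 1.79% of all. The 3 matches are shown here so that the letters can be seen in place. They are read 5′ to 3′ along the gene, with the matched letters in capitals, and are descriptions of these windows only. For Cry1 and Nfil3 the 250 bases before the start are given, from the minus strand of chr10:85185005-85185304 and chr13:52980990-52981289. For Arntl the match lies after the start, and bases 270 to 299 of the plus strand window chr7:113207261-113207560 are given.
Cry1: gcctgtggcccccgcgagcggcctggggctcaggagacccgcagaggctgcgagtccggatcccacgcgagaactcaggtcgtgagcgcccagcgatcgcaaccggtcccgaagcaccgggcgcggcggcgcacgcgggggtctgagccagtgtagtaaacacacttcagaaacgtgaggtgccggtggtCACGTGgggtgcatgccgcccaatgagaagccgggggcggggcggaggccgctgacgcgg
Nfil3: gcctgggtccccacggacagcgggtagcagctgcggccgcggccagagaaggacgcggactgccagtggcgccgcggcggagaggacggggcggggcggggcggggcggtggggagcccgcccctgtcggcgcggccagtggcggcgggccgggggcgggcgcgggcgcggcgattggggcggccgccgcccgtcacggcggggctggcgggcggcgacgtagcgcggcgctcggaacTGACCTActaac
Arntl: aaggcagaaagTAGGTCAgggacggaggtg
The Nfil3 match is the ROR element core on the opposite strand. The single windows of Npas2, Cry2 and Dbp and the 3 of Clock held none of these letters.

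The labelled regions matched their marker genes. The summed level of 8 genes of striatal projection neurons was 126 to 196 CPM (counts scaled to a common library size with the trimmed mean of M-values) in the cortical libraries and 3021 to 8305 CPM in the striatal ones. The sum of 6 genes of cortical projection neurons was 2062 to 2285 CPM in cortex and 31.5 to 1066 CPM in striatum. Striatal libraries 20 (wild-type) and 19 (Igf2enh-/-) had the lowest striatal neuron sums of their groups, 3021 and 4145 CPM. Library 20 also had the highest cortical neuron sum of the striatal libraries. Libraries 23 (Igf2enh-/-), 16 and 26 (both wild-type) followed at 801.4, 765.7 and 648.4 CPM. The part of such cortical RNA in the striatal values was not tested. The sum of 4 oligodendrocyte genes was 9133 CPM in library 20 and 7994 CPM in library 22, both wild-type, against at most 6070 CPM in any other striatal library, with medians of 5654 CPM in wild-type and 4605 CPM in Igf2enh-/- striatum. Striatal library 15 (Igf2enh-/-) held 3280 CPM of 6 choroid plexus genes against at most 145.6 CPM in any other library, with Ttr at 3036 CPM and Igf2 at 257.6 CPM. Igf2, the gene beside the deletion, ranged over 52.0 to 107 CPM in wild-type and 88.4 to 173 CPM in Igf2enh-/- cortex, and over 34.1 to 44.0 and 46.0 to 257.6 CPM in striatum. In bulk tissue, fewer cells of a type and less RNA per cell cannot be told apart.

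Per kilobase of exons, Cry2 had the highest mean of the members in every group. Nfil3 had the lowest, though it was level with Cry1 in Igf2enh-/- cortex. In wild-type cortex the levels were 25.2 ± 0.567 CPM per kb for Cry2, 15.0 ± 1.63 for Arntl, 13.6 ± 0.422 for Npas2, 12.2 ± 0.436 for Clock and 5.24 ± 0.515 for Cry1 (SD, n = 6), and Nfil3 ran from 3.07 to 4.58. The libraries of Arntl (13.4 to 17.3 CPM per kb) and Npas2 (13.0 to 14.0) overlapped, and those of the other neighbours in this order did not. In wild-type striatum Npas2 came second at 17.2 ± 2.30 CPM per kb (SD, n = 7), above Arntl at 14.7 ± 1.72, with overlapping libraries. Cry1 stood at 7.92 ± 1.02 and Nfil3 at 2.27 ± 0.569 CPM per kb there. In Igf2enh-/- cortex Cry1 and Nfil3 were level at 4.65 ± 0.915 and 4.63 ± 1.00 CPM per kb (SD, n = 6). Dbp was above every member in wild-type cortex at 35.0 ± 4.53 CPM per kb, and in Igf2enh-/- cortex its mean of 20.1 ± 3.54 fell between those of Cry2 (22.0 ± 1.86) and Arntl (18.0 ± 1.87), with overlapping libraries. Exon lengths are those of an older annotation (GENCODE vM1), so the order between genes depends on which exons it holds.

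**Figure D1:**
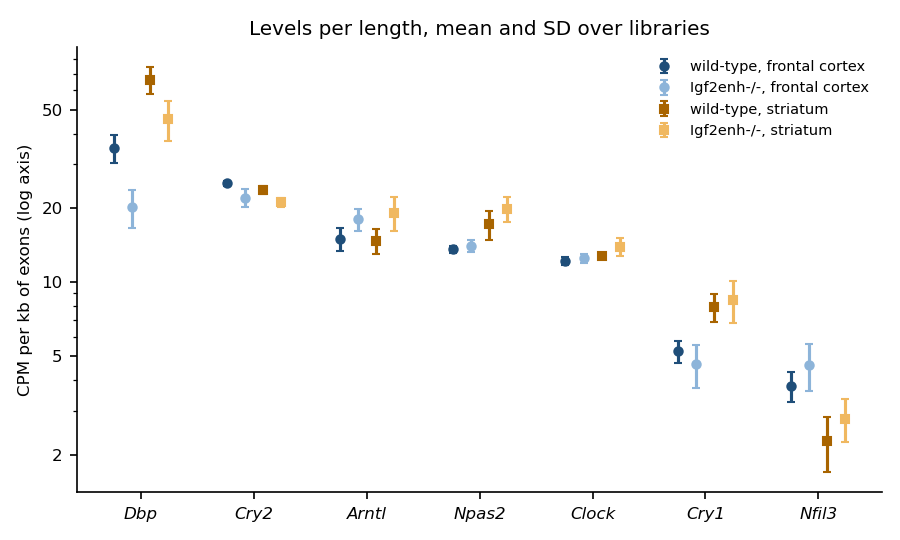
Level of each member and Dbp in CPM per kb of exons on a log axis, as mean and SD over the libraries of the 4 groups (6 and 6 in cortex, 7 and 8 in striatum). Cry2 has the highest mean of the members in all 4 groups and Nfil3 the lowest, level with Cry1 in Igf2enh-/- cortex.

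The comparison of Igf2enh-/- with wild-type mice asks whether the deletion goes with a change in the clock genes of either region. The hour of tissue collection is not in the labels. Its part in the differences between genotypes, and in the relations with Dbp below, was not tested. Arntl averaged 20.5% higher in Igf2enh-/- cortex and 29.0% higher in Igf2enh-/- striatum. Nfil3 averaged 22.0% and 23.7% higher, and Cry2 was at 0.872 and 0.895 of its wild-type level. None of the 6 members was called for genotype (adjusted p under 0.05, edgeR quasi-likelihood) in either region, where 0.380% (cortex) and 0.0360% (striatum) of all tested genes did. At an unadjusted p under 0.05 there were 3 of 6 members in cortex (Arntl, Cry2, Nfil3) against 13.5% of all genes, and 4 of 6 in striatum (Arntl, Clock, Npas2, Cry2) against 10.0%. The call on Arntl and Cry2 depends on the test. The likelihood ratio test of edgeR, which is the study's, called Arntl and Cry2 in cortex and Arntl in striatum. DESeq2 called both genes in both regions, and limma-voom called 0 members in either. Over all genes the likelihood ratio test called 232 of 13936 in cortex and 56 of 13875 in striatum. DESeq2 called 242 and 112 of the same genes. For no member did the libraries of the genotypes separate fully in either region, against 1.31% of all genes in cortex and 0.231% in striatum whose genotypes did not overlap.

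**Figure D2:**
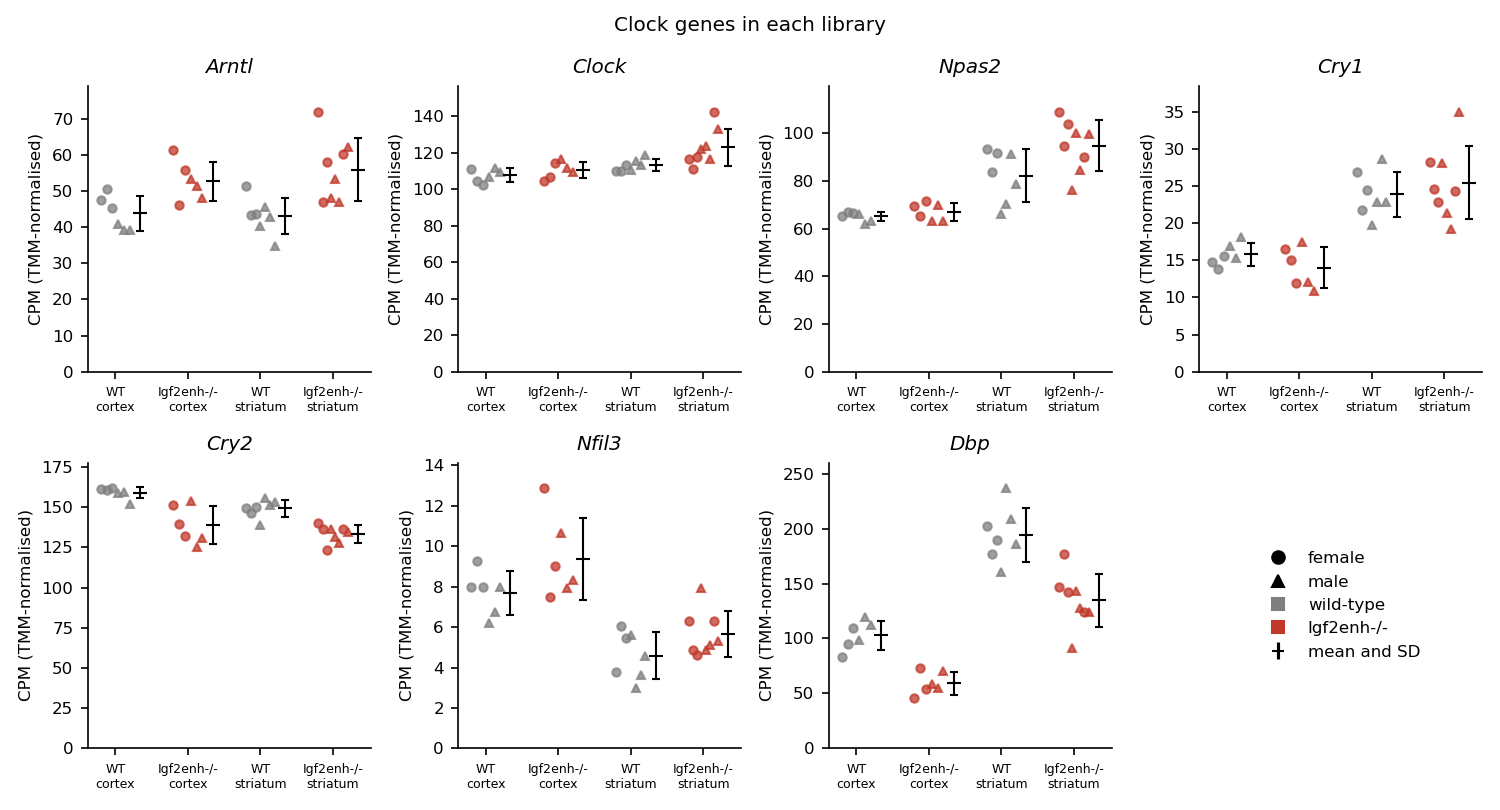
CPM of each member and of Dbp in all 27 libraries (circles female, triangles male, grey wild-type, red Igf2enh-/-), with the mean and SD of each group in black. The 6 Igf2enh-/- cortical libraries lie at or above 46.1 CPM for Arntl and 4 of them above every wild-type library, and for Cry2 the genotypes are ordered the other way.

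Arntl encodes BMAL1, the partner of CLOCK or NPAS2 in the activating pair. In cortex its lowest, median and highest libraries were 39.1, 43.2 and 50.5 CPM in wild-type mice and 46.1, 52.4 and 61.2 CPM in Igf2enh-/- mice. All 6 Igf2enh-/- libraries were above the wild-type median and 4 were above every wild-type library. On the log2 scale the difference of 0.27 came with a standard error of 0.0622 (adjusted p = 0.0741) with edgeR quasi-likelihood, and the adjusted p was 0.00859 in the likelihood ratio test, 0.00883 in DESeq2 and 0.0839 in limma-voom. In striatum the values were 34.7, 43.4 and 51.3 CPM in wild-type and 46.9, 55.7 and 71.8 CPM in Igf2enh-/- mice. All 8 Igf2enh-/- libraries were above the wild-type median and 5 above every wild-type library. Here the log2 fold change of 0.37 came with a standard error of 0.0891 (adjusted p = 0.174), with adjusted p of 0.0315 in the likelihood ratio test, 0.0201 in DESeq2 and 0.177 in limma-voom. Library 15 was the lowest of the Igf2enh-/- group, and without libraries 15 and 20 the log2 fold change was 0.41 (adjusted p = 0.128).

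Clock and Npas2 encode the partners of BMAL1, and neither was called. Clock was at 102, 108 and 112 CPM in wild-type and 105, 111 and 116 CPM in Igf2enh-/- cortex (lowest, median, highest). In striatum it was at 110, 113 and 119 CPM in wild-type and 111, 120 and 142 CPM in Igf2enh-/- mice, where 4 of 8 libraries were above every wild-type library. Clock differed on the log2 scale by 0.03 (standard error 0.0326, adjusted p = 0.685) in cortex and 0.13 (0.0467, adjusted p = 0.386) in striatum. Npas2 was nearly flat in cortex, at 62.0, 65.8 and 67.2 CPM in wild-type and 63.1, 67.4 and 71.7 CPM in Igf2enh-/- mice. In striatum it spread more widely, over 66.0, 83.8 and 93.4 CPM in wild-type and 76.1, 97.3 and 109 CPM in Igf2enh-/- mice. It differed on the log2 scale by 0.04 (standard error 0.0361, adjusted p = 0.667) in cortex and 0.20 (0.0773, adjusted p = 0.417) in striatum. The lowest Npas2 values of the striatal groups were in libraries 20 and 19, which also had the lowest striatal neuron sums. Without libraries 15 and 20 its striatal log2 fold change was 0.17. The part of tissue makeup in it was not tested.

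The cryptochromes hold back the activating pair. Cry2 had the opposite sign to the 3 activators in both regions, and Cry1 had it in cortex. Cry2 in cortex was at 152, 160 and 162 CPM in wild-type and 125, 136 and 154 CPM in Igf2enh-/- mice (lowest, median, highest). Of the 6 Igf2enh-/- libraries 5 were below every wild-type library. Its log2 fold change of -0.20 came with a standard error of 0.0477 (adjusted p = 0.0841) with edgeR quasi-likelihood (0.0172 in its likelihood ratio test, 0.0140 in DESeq2 and 0.0785 in limma-voom). In striatum Cry2 was at 139, 150 and 155 CPM in wild-type and 123, 136 and 140.1 CPM in Igf2enh-/- mice. Of the 8 Igf2enh-/- libraries 7 were below every wild-type library, and the lowest wild-type library was library 20. The striatal log2 fold change of -0.16 came with a standard error of 0.0355 (adjusted p = 0.135), with adjusted p of 0.103 in the likelihood ratio test, 0.00375 in DESeq2 and 0.146 in limma-voom. The sign of the Cry2 difference is that of Dbp in both regions, while its label is of the opposite phase, and neither Cry2 difference was called by the main test. Across the 6 libraries of each cortical genotype Cry2 had no clear relation with Dbp. The r was -0.40 in wild-type (exact permutation p = 0.436) and -0.29 in Igf2enh-/- mice (exact permutation p = 0.564). Cry1 had 13.9, 15.5 and 18.2 CPM in wild-type and 10.8, 13.6 and 17.5 CPM in Igf2enh-/- cortex, and 19.7, 22.9 and 28.7 against 19.2, 24.4 and 34.9 CPM in striatum. Of the 6 Igf2enh-/- cortical libraries 3 were below every wild-type library. Cry1 differed by -0.17 on the log2 scale (standard error 0.113, adjusted p = 0.53) in cortex and 0.10 (0.118, adjusted p = 0.853) in striatum, and without library 27 the striatal value was -0.0037.

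Nfil3, the repressor of D-box genes, had the lowest counts of the members, from 88 to 322 per library. In cortex it was at 6.23, 7.96 and 9.28 CPM in wild-type and 7.48, 8.68 and 12.9 CPM in Igf2enh-/- mice. In striatum it was at 3.01, 4.58 and 6.04 CPM in wild-type and 4.61, 5.21 and 7.93 CPM in Igf2enh-/- mice, whose 8 libraries were all above the wild-type median. The highest cortical value was in library 1 and the highest striatal value in the Igf2enh-/- group in library 19, both libraries with the lowest Dbp of their region. The log2 values were 0.29 (standard error 0.124, adjusted p = 0.330) in cortex and 0.31 (0.158, adjusted p = 0.550) in striatum. Without library 1 the cortical value was 0.19, without library 19 the striatal value was 0.20, and without libraries 15 and 20 it was 0.41.

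Dbp had 83.4, 104 and 120 CPM in wild-type and 45.7, 56.3 and 72.7 CPM in Igf2enh-/- cortex, and fell by 0.80 on the log2 scale (standard error 0.104, adjusted p = 0.00449). In striatum it had 161, 190 and 237 against 91.2, 135 and 177 CPM, a log2 fold change of -0.54 (0.113, adjusted p = 0.101). In drawn counts where 200 genes carried a log2 change of 0.4 the same test recovered 80.5% of them in cortex and 62.5% in striatum, and at 0.2 it recovered 15.5% and 0.5%. The counts were drawn for each gene independently, without a sex effect or shared tissue makeup. These shares are over genes of all spreads and do not apply to a given member.

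**Figure D3:**
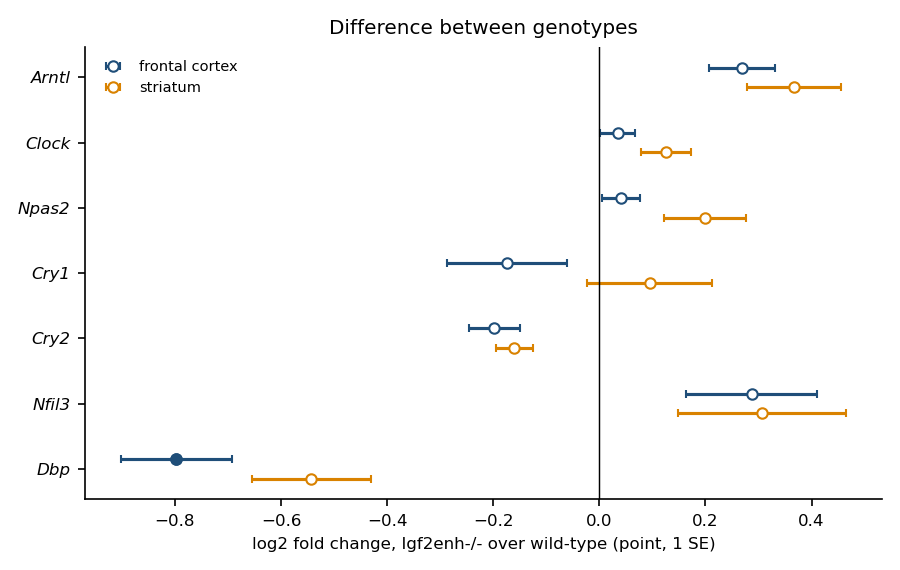
Log2 fold change of each member and Dbp, Igf2enh-/- over wild-type, in cortex (blue) and striatum (orange), with bars of 1 standard error. Filled points were called by edgeR quasi-likelihood at an adjusted p under 0.05, which held for Dbp in cortex only, and Arntl, Nfil3 and Cry2 have like values in both regions.

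Of the 24 other clock genes fixed for comparison, 23 were tested in cortex and 24 in striatum. In cortex 3 (Ciart, Dbp and Nr1d1) were called lower and 0 higher. There 21 of the 23 had a negative log2 fold change, with a median of -0.22. In striatum Ciart alone was called lower and 0 were called higher. There 18 of the 24 were negative, with a median of -0.16. At an unadjusted p under 0.05, 12 were lower and 0 higher in cortex, and 11 were lower and 1 higher in striatum. Of all tested genes 13.5% in cortex and 10.0% in striatum had such a p in either direction. The medians over all tested genes were 0.00074 and 0.00041. Of all tested genes 0.380% were called and 49.6% had a negative value in cortex, and 0.0360% and 49.8% in striatum. Ciart, a repressor of the BMAL1 pair, was at 8.39 ± 1.27 CPM (SD, n = 6) in Igf2enh-/- against 19.8 ± 4.25 CPM (SD, n = 6) in wild-type cortex. Nr1d1, a repressor of Arntl, was at 164 ± 11.5 CPM in wild-type and 125 ± 16.2 CPM in Igf2enh-/- cortex (adjusted p = 0.0313). Its relative Nr1d2 was at 144 ± 9.05 and 117.5 ± 12.4 CPM (adjusted p = 0.0514). In striatum their log2 fold changes were -0.39 (adjusted p = 0.230) and -0.22 (adjusted p = 0.285). Rora and Rorb, activators at ROR elements, were not called. Rora had log2 fold changes of -0.21 and -0.05 in cortex and striatum, and Rorb of -0.27 and -0.19. Arntl2, a relative of Arntl, was at -0.12 and -0.30 on the log2 scale, with adjusted p of 0.672 and 0.735. Next in order of p came Bhlhe41 (a repressor at E-boxes) in both regions, Tef (an activator at D-boxes) in cortex and Per1 (a partner of the CRY proteins) in striatum. Bhlhe41 had log2 fold changes of -0.37 (adjusted p = 0.0542) in cortex and -0.30 (adjusted p = 0.174) in striatum. In the same order Tef had -0.22 (adjusted p = 0.0651) and -0.13 (adjusted p = 0.561). Those of Per1 were -0.60 (adjusted p = 0.106) and -0.49 (adjusted p = 0.0587). This list was chosen with results of these data known.

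No member was called for sex. An adjusted p under 0.05 for sex was reached by 0 of the 6 members and by 0.0431% of all genes in cortex and 0.0432% in striatum. At an unadjusted p under 0.05 there was Arntl in cortex, with a log2 difference of males over females of -0.18 (standard error 0.0622, adjusted p = 0.559), and Npas2 in striatum (-0.19, standard error 0.0771, adjusted p = 0.454), or 1 of 6 members in each region against 7.56% and 10.8% of all genes. In wild-type cortex the 3 females were at 45.4 to 50.5 CPM of Arntl and the 3 males at 39.1 to 40.9 CPM, and in Igf2enh-/- cortex the sexes overlapped. The interaction of sex and genotype was called for 0 members and for 0.0215% of all genes in cortex and 0% in striatum, with 0 members at an unadjusted p under 0.05 in either, against 6.36% and 2.56% of all genes. The likelihood ratio test and DESeq2 also called 0 members for sex and for the interaction.

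The comparison of striatum with frontal cortex asks where in the forebrain the members are more abundant. Cry1 was 51.3% higher in wild-type striatum than in wild-type cortex, and Npas2 26.7% higher. Nfil3 was at 0.600 of its cortical level in striatum. Arntl had like means, at 43.8 ± 4.76 CPM (SD, n = 6) in cortex and 43.1 ± 5.02 CPM (SD, n = 7) in striatum. In wild-type mice 3 of the 6 members passed (Npas2, Cry1, Nfil3) and in Igf2enh-/- mice 4 of the 6, with Clock added, against 67.7% and 68.9% of all tested genes, so the members' share was not above that of genes at large. The libraries of the regions did not overlap for 2 of 6 members in each genotype (Cry1 and Nfil3 in wild-type, Npas2 and Cry1 in Igf2enh-/- mice), against 37.8% and 41.9% of all genes.

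Cry1 reached 13.9 to 18.2 CPM in wild-type cortex and 19.7 to 28.7 CPM in wild-type striatum, a log2 difference of 0.60 (standard error 0.125, adjusted p = 0.000170 with edgeR quasi-likelihood). In Igf2enh-/- mice it reached 10.8 to 17.5 and 19.2 to 34.9 CPM, a difference of 0.86 (0.123, adjusted p = 9.87e-07). All striatal libraries were above all cortical libraries of their genotype. Npas2 differed by 0.34 (standard error 0.0690, adjusted p = 0.000110) in wild-type and 0.50 (0.0673, adjusted p = 4.01e-07) in Igf2enh-/- mice. In wild-type mice the striatal library with the lowest Npas2, at 66.0 CPM, was library 20, which was the only one within the cortical range of 62.0 to 67.2 CPM. Nfil3 went the other way, with log2 differences of -0.74 (standard error 0.155, adjusted p = 0.000169) and -0.72 (0.145, adjusted p = 9.66e-05). Clock differed by 0.07 (0.0426, adjusted p = 0.164) in wild-type and 0.16 (0.0414, adjusted p = 0.00179) in Igf2enh-/- mice. Cry2 differed by -0.09 (0.0416, adjusted p = 0.0615) and -0.06 (0.0404, adjusted p = 0.214), and Arntl by -0.01 (0.0841, adjusted p = 0.937) and 0.09 (0.0810, adjusted p = 0.355). Whether the regions differ in the effect of the genotype was tested as an interaction, which was called for 0 of 6 members and 0% of 13414 genes, with 0 members and 405 genes (3.02%) at an unadjusted p under 0.05, and for 0 genes by the likelihood ratio test, DESeq2 and limma-voom. The largest interaction value among the members was that of Cry1, 0.27 (standard error 0.174, adjusted p = 1.00).

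**Figure D4:**
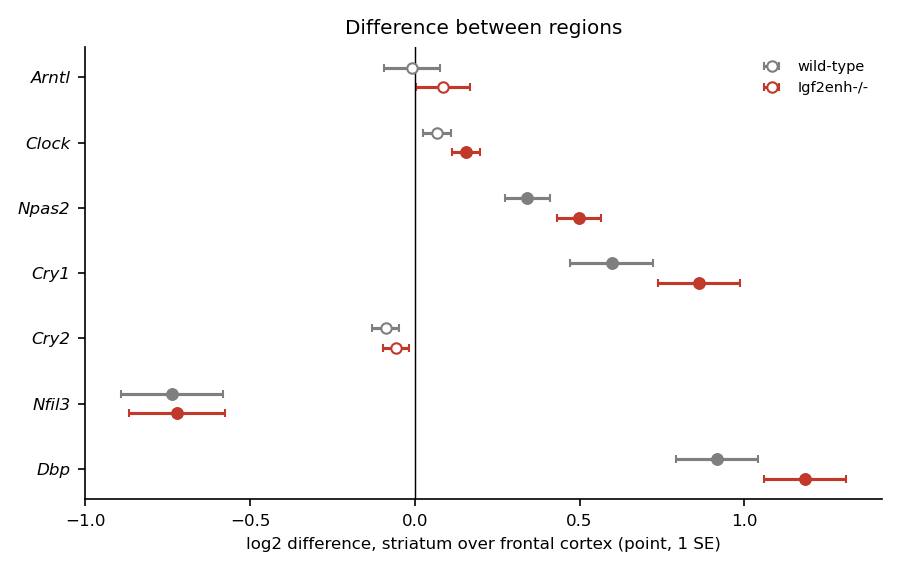
Log2 difference of each member and Dbp, striatum over frontal cortex, in wild-type (grey) and Igf2enh-/- (red) mice, with bars of 1 standard error and filled points at an adjusted p under 0.05. Npas2, Cry1 and Dbp lie to the right of 0, Nfil3 to the left, and Arntl, Clock and Cry2 within 0.16 of 0.

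The last comparison sets each member against Dbp across the libraries of a region, on log2 CPM. In cortex the r with Dbp was negative within both genotypes for Arntl, Npas2, Nfil3 and Cry2, and most negative for Arntl. In wild-type and Igf2enh-/- cortex it was -0.59 and -0.68 for Npas2 and -0.31 and -0.75 for Nfil3. For Clock and Cry1 its sign differed between the genotypes. In striatum Nfil3 had the most negative relation of the 6 members. Cortical genotypes did not overlap in Dbp, so the relation was read within genotypes there, while in striatum they overlapped and it was read over all 15 libraries and within genotypes. Over all genes tested 0 of the 12 cortical and 0 of the 6 pooled striatal relations had an adjusted p under 0.05 by permutation tests (adjusted over all genes), and 0.144% of all genes did in pooled striatum.

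Among the 6 wild-type cortical libraries Arntl had r = -0.71 (exact permutation p = 0.121) and Spearman's rho = -0.89 (exact p = 0.0333) with Dbp. The wild-type females had 45.4 to 50.5 CPM of Arntl and 83.4 to 110 CPM of Dbp. The wild-type males had 39.1 to 40.9 CPM of Arntl and 98.3 to 120 CPM of Dbp. The part of sex in the wild-type relation was not tested. Among the 6 Igf2enh-/- libraries Arntl had r = -0.96 (exact p = 0.00694) and rho = -0.94 (exact p = 0.0167), with an adjusted p of 0.935. It was the member below an unadjusted p of 0.05 in Igf2enh-/- cortex, where 3.96% of all genes were, and in wild-type cortex 0 members and 5.50% of genes were. The smallest exact p that 6 libraries allow is 0.0014, so an adjusted p under 0.05 over all genes was practically out of reach within the cortical genotypes and the 0 of 12 says nothing of the relations. Leaving out the 2 libraries farthest from the median of Dbp (libraries 2 and 10, and libraries 3 and 11), r was -0.57 and -0.87. In Igf2enh-/- cortex library 1 had the lowest Dbp, 45.7 CPM, and the highest Arntl, 61.2 CPM, and library 3 the highest Dbp, 72.7 CPM, and the lowest Arntl, 46.1 CPM. With the genotype means removed, Arntl had r = -0.84 over the 12 cortical libraries (permutation p = 0.00185, adjusted p = 0.952), Npas2 -0.65 (p = 0.0487) and Nfil3 -0.60 (p = 0.0631), so 2 of 6 members and 4.75% of all genes were under 0.05. An r below that of Arntl was found for 0.0789% of genes. Library 1 also had the lowest oligodendrocyte sum of the cortical libraries, 822.5 CPM of 4 genes against at least 1241 CPM in the others, and the part of tissue makeup was not tested.

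In striatum Nfil3 had r = -0.79 with Dbp over 15 libraries (permutation p = 0.0005, adjusted p = 0.0878) and rho = -0.67 (p = 0.00805). Library 22 had the highest Dbp, 237 CPM, and the lowest Nfil3, 3.01 CPM, and library 19 the lowest Dbp, 91.2 CPM, and the highest Nfil3, 7.93 CPM. Without these libraries r was -0.56 (permutation p = 0.0465). Within the 7 wild-type libraries r was -0.91 (exact p = 0.00377) and rho -0.93 (exact p = 0.00675), and without libraries 20 and 22 it was -0.92. Within the 8 Igf2enh-/- libraries r was -0.75 (exact p = 0.0339) and rho -0.62 (exact p = 0.115), and without libraries 15 and 19 it was -0.19, so the relation in this genotype rests on those libraries. Cry2 had r = 0.73 (permutation p = 0.00207, adjusted p = 0.149) and rho = 0.81 (p = 0.00064), the same sign as Dbp, with 0.85 within wild-type (0.41 without libraries 20 and 22) and -0.07 within Igf2enh-/- mice. Clock had r = -0.60 (permutation p = 0.0188) and rho = -0.69 (p = 0.00543), with 0.35 within wild-type and -0.43 within Igf2enh-/- mice. Arntl had r = -0.45 (permutation p = 0.0930) and rho = -0.60 (p = 0.0191), with 0.43 and 0.13 within the genotypes. The pooled values of Cry2, Clock and Arntl therefore did not hold within both genotypes. Without libraries 19 and 22 they were 0.80, -0.73 and -0.62.

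Of the 6 members 3 were under an unadjusted p of 0.05 over all striatal libraries, against 12.2% of genes. In wild-type striatum Cry2 and Nfil3 were, against 22.6%, and in Igf2enh-/- striatum Nfil3 and Npas2 (r = 0.71, exact p = 0.0482) were, against 13.0%. With the genotype means removed 27.3% of all striatal genes had an unadjusted p under 0.05 with Dbp and 4.25% an adjusted one. Nfil3 was the member among them (r = -0.76, permutation p = 0.00047, adjusted p = 0.0359), and Arntl had r = 0.22 (permutation p = 0.484). The libraries at the ends of Dbp stood apart in other measures too. Library 22 had the lowest RNA concentration of all, 61.2 ng per µl, libraries 20 and 22, the lowest and highest wild-type Dbp, had the highest oligodendrocyte sums, library 19 and library 20 had the lowest striatal neuron sums of their genotypes and the lowest Dbp of them, and the part of these measures in the relations was not tested. Whether the relation of Arntl or Nfil3 with Dbp differs between regions was not tested.

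**Figure D5:**
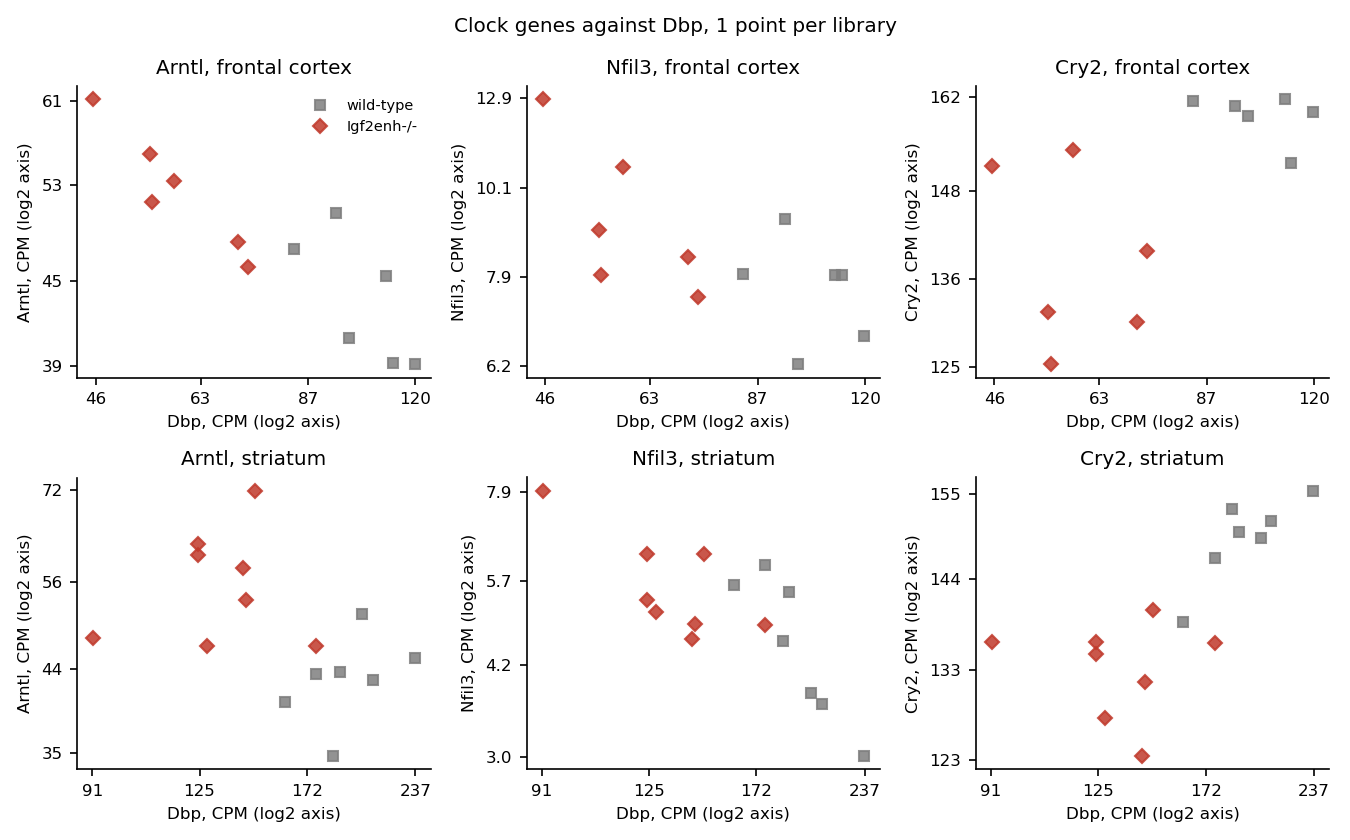
Arntl, Nfil3 and Cry2 against Dbp, both as CPM on log2 axes, 1 point per library, in cortex (top, 12 libraries) and striatum (bottom, 15 libraries), with grey squares for wild-type and red diamonds for Igf2enh-/-. Arntl runs down against Dbp within both genotypes in cortex and within neither in striatum. Nfil3 has a negative r within both genotypes of both regions, at -0.31 in wild-type and -0.75 in Igf2enh-/- cortex. Cry2 in striatum separates the genotypes more than it follows Dbp within them.

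The log2 ratio of Arntl to Dbp in a library put both genes on a single scale. In cortex it ran from -1.61 to -0.81 in wild-type and from -0.66 to 0.42 in Igf2enh-/- libraries. In striatum it ran from -2.42 to -1.98 in wild-type and from -1.91 to -0.93 in Igf2enh-/- libraries, with library 15 the lowest of the latter. The genotypes did not overlap in either region. In cortex this also held for Clock, Npas2 and Nfil3, or 4 of 6 members, but the genotypes did not overlap for 81.8% of all genes taken over Dbp there. In striatum it held for Arntl, Npas2 and Cry1, or 3 of 6 members, against 14.7% of all genes. Dbp had a log2 fold change of -0.54 there, which raises every ratio over it in Igf2enh-/- libraries. The counts are therefore not results about the members alone. Cry1 by itself differed by 0.10 between the striatal genotypes (adjusted p = 0.853, edgeR quasi-likelihood). The ratio of Npas2 ran from -1.75 to -1.05 in wild-type and from -0.90 to -0.26 in Igf2enh-/- striatum, and that of Cry1 from -3.37 to -2.87 and from -2.84 to -1.70.

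Among themselves the members varied unequally within groups. After removal of the 4 group means the SD on the log2 scale was 0.29 for Nfil3, 0.23 for Cry1, 0.18 for Arntl, 0.15 for Npas2, 0.08 for Clock and 0.07 for Cry2, with a median of 0.12 over 13414 genes and 0.23 for Dbp. The deviations of Cry1 and Cry2 from their group means had r = 0.71 over the 12 cortical and 0.57 over the 15 striatal libraries. Those of Arntl and Npas2 had 0.61 and 0.56. Those of Arntl and Nfil3 had 0.80 in cortex and -0.11 in striatum. These values are descriptions over libraries that also share depth and tissue makeup. Over all 27 libraries the genes with deviations most like those of Arntl were Ago4 (r = 0.79), Cystm1, Arhgef15, Dhx35 and Tmed1, and Oprl1 (-0.77), Anxa7 and Nploc4 were among the 5 most opposed. Npas2 ranked 484th from the top of 13413 genes with r = 0.54, and Dbp had r = -0.16.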

How the data were processed

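The labels give region, genotype, sex and a library number for 27 mouse libraries. Libraries were made from 500 ng of total RNA depleted of ribosomal RNA and sequenced as 75 bp single-end reads. Trimming by the authors used Trim Galore 0.5.0 and alignment used STAR on GRCm38, with genes from GENCODE vM15. The deposited values are the authors' raw counts per gene. The strand setting of the counting is not given in the sources used here, so antisense reads cannot be told apart. The tables held 0 columns from other series. Of 52636 identifiers 32688 had a symbol, 2628 of them updated by RefSeq synonyms. Exon lengths came from GENCODE vM1, and positions and promoters from RefSeq in GRCm38.p6, which held every member.

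A gene entered the tests of a region when no library there was under 1 CPM. The main test was quasi-likelihood in edgeR 4.0.16 (R 4.3.3), an F-test, after TMM normalisation, on genotype with sex as covariate, and p-values were adjusted by Benjamini-Hochberg across all tested genes. TMM factors ran from 0.978 to 1.03, and 1 CPM was 23.7 to 33.9 counts. The standard error is the size of the log2 fold change over the root of F. Regions were compared in a fit of 4 group means and sex over all libraries, with the libraries treated as independent. The p-values measure the spread between these libraries. Correlations used log2 CPM without a pseudocount, with two-sided permutation p, exact for up to 8 libraries and from 100000 draws otherwise. They were adjusted over all tested genes, not over the 12 relations of members and regions as first planned. Tests were checked on simulated counts. Alternatives were DESeq2 1.42.0, voom from limma 3.58.1, edgeR's likelihood ratio test, other scalings and filters, models without sex or with RNA concentration, and leaving out libraries.

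The members, the list of 24 other clock genes and the 8 marker lists were chosen with earlier results of these data known. The genes named are the members, Dbp, the other clock genes that passed for genotype or were among the 6 of smallest p in a region, Rora, Rorb, REV-ERBs and Arntl2, the 5 genes most and least like Arntl, and Igf2 and Ttr where a library stood apart. Some genes that this rule names are not reported here. Of the other marker lists, the summed levels were 133 to 176 CPM for endothelium, 215 to 283 CPM for microglia, 794 to 1092 CPM for astrocytes and 17.6 to 122 CPM for meningeal fibroblasts. Correlations and plots used Python 3.11.15, the latter with matplotlib 3.10.9.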

Additional observations from a re-analysis of the deposited data

Results flagged for a closer look

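Among the 24 combinations of a member and a group, a single library stood apart in 1. Cry2 in wild-type cortex was 152 CPM in library 12, a male, while the other 5 libraries lay between 159 and 162 CPM, a gap of 0.737 of the whole range of the group. It is the wild-type library that lies within the Igf2enh-/- range of 125 to 154 CPM. By chance about 1 in 20 groups holds a library past the limit used.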

How the results depend on the processing

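Of 1050 recomputed values for the 54 results on members, 1031 kept their direction or stayed uncalled on the same side of the threshold, 19 passed it where the reported value had not, and 0 called values reversed. The 19 concern Arntl and Cry2 for genotype and Cry2 and Clock between regions in wild-type mice. For genotype in cortex Arntl also passed with no filter (adjusted p = 0.000834) and without library 3 (0.00628), and Cry2 with no filter (0.00372), without library 1 (0.0429) and without library 7 (0.0219). Between regions in wild-type mice Cry2 passed in DESeq2 (0.0471) and without libraries 1, 7, 9, 12 or 22 (0.0443 to 0.0496), and Clock with scaling by total count (0.0335). The cause was not tested.

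The counts of genes called for genotype moved with the tool. In cortex the 53 genes became 232 in the likelihood ratio test, 242 in DESeq2, 459 with no filter, 35 with RNA concentration in the model, and 8 (without library 10) to 99 (without library 1) when libraries were left out. In striatum the 5 genes became 56, 112, 10 and 10 in the same order, 3 in limma-voom, 13 with filterByExpr, 3 without the sex term, and 3 (without library 18 among others) to 8 (without library 23). For sex the 6 cortical genes became 28 in the likelihood ratio test, 21 in DESeq2, 14 with filterByExpr and 185 with no filter, and the 6 striatal genes 12, 16, 12 and 14. For the interaction of sex and genotype the 3 cortical genes became 12, 9 and, with no filter, 310, and the 0 striatal genes (355 at an unadjusted p under 0.05) became 1 and 2. Leaving out libraries, 8776 to 9285 genes were called between regions in wild-type and 8978 to 9429 in Igf2enh-/- mice, and 0 for the interaction. Of the relations with Dbp 1 (Nfil3) was called in striatal residuals from genotype means, 0 once sex was removed too, and 0 under the other alternatives run, where the cortical tests within genotypes could hardly pass. Over all 12 cortical libraries, which were not pooled because Dbp separates the genotypes there, Arntl would be called (permutation test, adjusted p = 0.0446). In that pooled test 0.201% of all genes would be called, and 14.5% had an unadjusted p under 0.05. Leaving out libraries 15 and 20 was chosen after the data were seen. No paired analysis was possible because the labels do not say which cortical and striatal libraries came from the same mouse.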
